A study of Mus musculus with 10 samples.

Results

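The genes that make, sense, move and export cholesterol were examined in kidneys of old mice under long-term calorie restriction. They were a list of 32 mouse genes, each measured by the probe sets whose platform annotation gave that gene's symbol alone, 64 of 45101 probe sets in all. Of the 32 genes, 29 had such a probe set, all 29 passed the filter on dim probe sets, and each was represented by its brightest one. Acat2, Nr1h2 and Soat1 had no probe set with their symbol alone in the annotation used and were not analysed here. The study took kidneys of male C57BL/6 mice aged 30 months, 5 on a calorie-restricted diet and 5 on a control diet, with 1 mouse on each of 10 Affymetrix arrays. All 10 mice shared strain, sex, age and tissue, and the labels gave no allele or drug. The series title calls the restriction long-term, and the labels and notes used here give no degree or length of it, no diet composition, and no hour or feeding state at collection. Values are MAS5 signals, the brightness of a probe set in linear units. Differences are log2 signal in calorie-restricted minus control kidney, and ± after a difference is its standard error in limma.

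Cells make cholesterol from acetyl-CoA through mevalonate, the isoprenoids, squalene and a series of sterols. When sterol in the endoplasmic reticulum is low, the escort protein Scap carries the transcription factor precursor Srebf2 to the Golgi, where it is cut and released to switch on nearly every gene of the route, while Insig1 and Insig2 hold the complex back when sterol is high. When sterol is plentiful, oxysterols activate the liver X receptors, LXR (Nr1h2 and Nr1h3), which raise the transporters Abca1 and Abcg1 that load cholesterol onto lipoprotein particles. Kidney tubule cells both make cholesterol and take it up, and resident macrophages are a further site of Abca1, Abcg1 and Apoe expression.

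The promoters of the 4 synthesis genes and the 1 efflux gene whose signals differed between the diets are shown to set their letters beside the values that follow. They are the 200 bases before the annotated start, from RefSeq on GRCm38.p6, written 5′ to 3′ on the strand of the gene. Capitals mark matches, on either strand, to 4 motifs: TCACNCCAC (a core of the sterol regulatory element), CCAAT (the box bound by NF-Y), GGGCGG (the GC box bound by Sp1) and the LXR element (AGGTCA repeated after a gap of 4 bases, bound by LXR with its partner RXR). Dhcr7 has 3 annotated starts, and the one shown was chosen because it holds the CCAAT matches.
Hmgcs1 promoter, chr13:119690151-119690350, + strand: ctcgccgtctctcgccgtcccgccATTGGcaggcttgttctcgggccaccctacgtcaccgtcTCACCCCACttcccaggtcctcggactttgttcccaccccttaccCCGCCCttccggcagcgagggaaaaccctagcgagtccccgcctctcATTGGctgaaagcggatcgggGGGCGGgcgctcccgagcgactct
Mvk promoter, chr5:114444069-114444268, + strand: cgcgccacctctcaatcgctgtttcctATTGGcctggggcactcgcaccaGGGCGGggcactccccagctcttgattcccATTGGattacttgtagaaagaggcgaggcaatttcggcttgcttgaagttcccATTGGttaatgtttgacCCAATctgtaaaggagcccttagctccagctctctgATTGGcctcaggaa
Lss promoter, chr10:76531405-76531604, + strand: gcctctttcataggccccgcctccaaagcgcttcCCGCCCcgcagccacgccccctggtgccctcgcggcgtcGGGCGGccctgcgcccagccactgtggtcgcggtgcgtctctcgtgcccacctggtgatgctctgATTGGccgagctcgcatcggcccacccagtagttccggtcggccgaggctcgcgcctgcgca
Dhcr7 promoter, chr7:143830014-143830213, + strand: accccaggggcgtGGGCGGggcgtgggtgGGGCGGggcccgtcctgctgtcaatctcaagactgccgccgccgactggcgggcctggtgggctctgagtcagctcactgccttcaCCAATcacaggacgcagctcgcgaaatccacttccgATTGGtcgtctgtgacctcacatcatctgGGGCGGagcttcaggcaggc
Abca1 promoter, chr4:53159896-53160095, - strand: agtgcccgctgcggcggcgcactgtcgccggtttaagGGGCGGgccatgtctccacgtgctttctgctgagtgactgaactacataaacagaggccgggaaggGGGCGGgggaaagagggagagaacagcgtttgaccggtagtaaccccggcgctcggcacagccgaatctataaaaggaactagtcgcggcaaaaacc
The Hmgcs1 stretch holds the sterol element core TCACCCCAC, which starts 137 bases before the gene's start, as well as CCAAT and GC boxes. The stretches of Mvk, Lss and Dhcr7 hold CCAAT and GC boxes without an exact match to the sterol element core. That of Abca1 holds exact matches to the GC box alone among the 4 motifs. Windows of 250 bases before to 50 after the start were found for 25 of the 32 genes, 15 of them synthesis genes. CCAAT stood in a window of 14 of these 15 synthesis genes (93.3%), against 41.1% of 27025 genes, and GGGCGG likewise in 14 of 15 (93.3%), against 38.2%. The 27025 were all genes with a window, whether or not they were tested on these arrays. TCACNCCAC stood in 1 of the 15, Hmgcs1 (6.67%), against 1.44% of all genes. The exact letters of the LXR element stood in 0 of the 25 members with a window, against 0.0148% of all genes. Scap, whose signal also differed between the diets, is not printed above. Its windows held exact matches to the GC box alone among the 4 motifs. No motif contains another, and a match is a count of letters and not a shown binding site. Only exact letters were sought, so sites that differ from a motif in any letter would have been missed. A stretch or window without a match is therefore not shown to lack a site.

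The 5 calorie-restricted arrays had median signals of 118 to 136 and the 5 control arrays 115 to 121, and Spearman's rho over all probe sets was 0.926 to 0.951 within a diet and 0.922 to 0.950 between diets. Markers of the proximal tubule, the tissue's main cell type, were bright on every array, with summed signals of 176602 to 202173 in calorie-restricted and 119782 to 149703 in control kidney. The log2 ratio of 3′ over 5′ signal, averaged over the control transcripts Gapdh and Actb and higher where RNA is shorter, was 1.67 ± 0.46 in calorie-restricted and 1.05 ± 0.26 in control kidney (SD, n = 5 each, 2-sided exact permutation p = 0.0476). It was 1.75 to 2.21 on calorie-restricted replicates 1 to 3 and 1.16 and 1.24 on replicates 5 and 4, inside the control range of 0.76 to 1.39. Among replicates 4 and 5 of both diets alone the ratio was lower in calorie-restricted kidney (1.24 and 1.16) than in control kidney (1.39 and 1.25), the other way from the 10 arrays together.

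Of the 29 genes, 5 rose and 1 fell in calorie-restricted kidney at an adjusted p under 0.05 (limma, Benjamini-Hochberg over 22517 probe sets). The rises were those of the synthesis enzymes Hmgcs1, Mvk, Lss and Dhcr7 and of the escort protein Scap, and the fall was that of the exporter Abca1. Among all 12196 genes tested by their brightest probe set 3.08% rose and 3.02% fell, 6.10% in either direction (6.09% of all probe sets), beside 17.2% and 3.45% of the 29. The calorie-restricted and control arrays did not overlap for 5 of the 29 genes (Hmgcs1, Lss, Tm7sf2 and Scap above, Abca1 below), against 7.49% of all genes, 3.80% above and 3.69% below. The difference was above 0 for 20 genes and below 0 for 9, with a median of 0.13, against -0.01 over all genes. The count of genes past the threshold was 1 in replicates 4 and 5 of each diet alone (Abca1) and 0 with this 3′ over 5′ ratio fitted as a covariate, where the lowest adjusted p of the 6 was 0.109. With the covariate the differences were 0.55 for Hmgcs1, 1.05 for Mvk, 0.58 for Lss, 0.59 for Dhcr7, 0.44 for Scap and -0.78 for Abca1. All 6 kept their direction in both settings. Because whole kidney was measured, fewer cells of a type and less RNA per cell cannot be told apart.

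**Figure D1:**
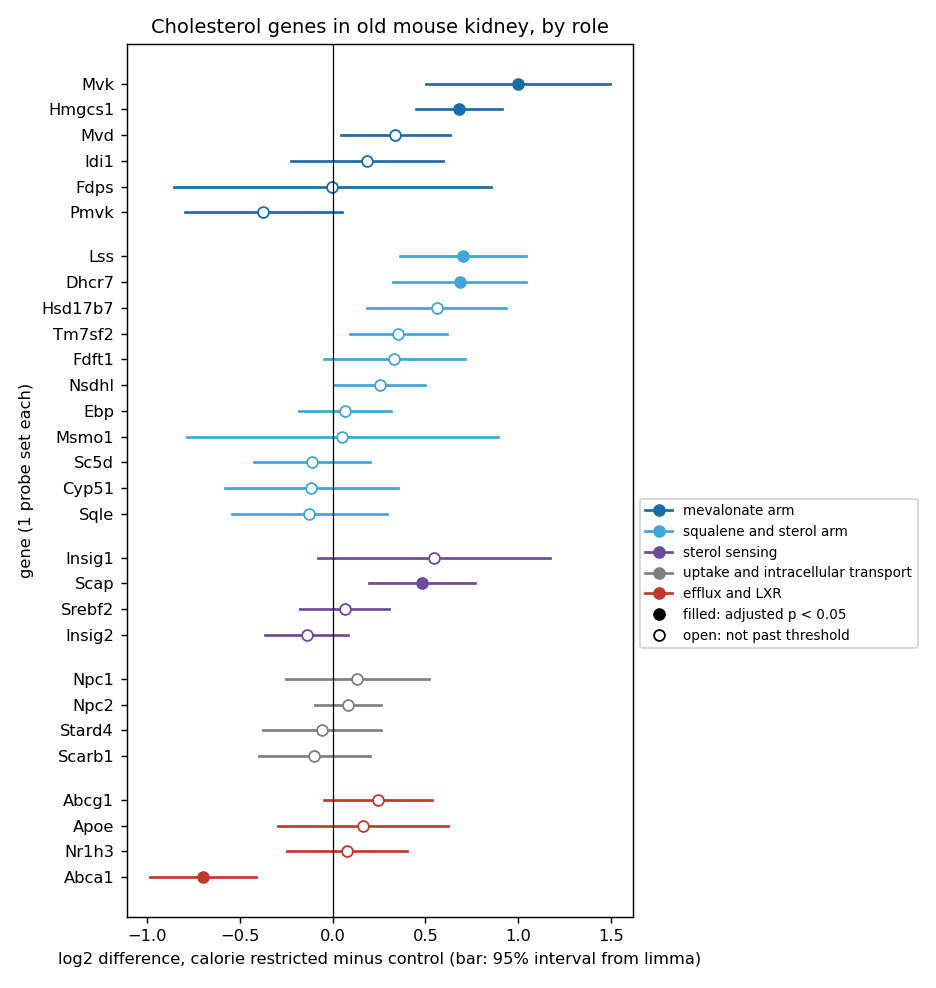
Log2 difference in signal, calorie restricted minus control (horizontal axis), of the 29 genes, grouped by role and coloured by group, with the 95% interval of limma as a bar; filled points passed an adjusted p of 0.05. Most synthesis genes lie right of 0, Mvk farthest at 0.998, and Abca1 lies farthest left at -0.70.

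The mevalonate arm, from acetyl-CoA units to farnesyl diphosphate, held 2 of the rises among 6 measured genes, with a median difference of 0.26. Hmgcs1, the cytosolic synthase that makes HMG-CoA, gave signals of 24664, 29072, 25532, 23154 and 19278 in calorie-restricted kidneys (replicates 1 to 5), against 17481, 13547, 16295, 13308 and 15018 in control kidneys. Every calorie-restricted array lay above every control array. The means were 24339.9 ± 3569 and 15129.9 ± 1784 (SD, n = 5 each), a log2 difference of 0.68 ± 0.11 (limma adjusted p = 0.0125). It was 0.43 after quantile normalization (adjusted p = 0.0356) and passed with any 1 array left out, at 0.61 to 0.76. In replicates 4 and 5 alone it was 0.58 and did not pass (adjusted p = 0.0826). The other 3 tested probe sets of Hmgcs1 differed by 0.01 ± 0.12, 0.30 ± 0.14 and -0.26 ± 0.23 and none passed, and the mean of its probe sets differed by 0.18 (limma adjusted p = 0.387). The rise of Hmgcs1 is therefore a measurement of 1 of its 4 tested probe sets.

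Mvk, mevalonate kinase, gave 325, 366, 262, 309 and 351 in calorie-restricted kidneys, against 101, 171, 284, 135 and 161 in control kidneys. Only control replicate 3 reached into the calorie-restricted range. The means were 322 ± 40.5 and 170.2 ± 69.1 (SD, n = 5 each), a difference of 0.998 ± 0.23 (limma adjusted p = 0.0288) and of 1.16 in replicates 4 and 5 alone. On control replicate 1 its signal was below that array's median, so the size of the rise is uncertain. A dimmer probe set of Mvk that was not tested had means of 134 and 52.3. The call was lost without control replicate 2 (1.02, adjusted p = 0.0623) or 4 (0.94, 0.0622) and without calorie-restricted replicate 1 (0.99, 0.0663), 2 (0.95, 0.074) or 3 (1.07, 0.0515).

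The enzymes after mevalonate kinase did not pass. Mvd, which makes isopentenyl diphosphate, gave 724 to 1184 in calorie-restricted kidneys, against 633 to 754 in control kidneys (0.34 ± 0.14, limma adjusted p = 0.138), and its second probe set differed by 0.25 ± 0.15. Pmvk, the kinase between Mvk and Mvd, gave 297 to 574 in calorie-restricted kidneys, against 407 to 765 in control kidneys (-0.37 ± 0.20, adjusted p = 0.246). Idi1, the isomerase that makes dimethylallyl diphosphate, differed by 0.19 ± 0.19 and by 0.28 ± 0.19 on its second probe set, and by 0.86 in replicates 4 and 5 alone, where it did not pass (limma adjusted p = 0.0570). Control replicates 4 and 5 were its lowest controls. Against all controls, calorie-restricted replicates 4 and 5 differed by 0.49 for Idi1. Fdps, farnesyl diphosphate synthase, had the widest spread of the 29 genes among control kidneys. It gave 284, 232, 276, 520.5 and 467 in calorie-restricted kidneys, against 289.7, 561, 684, 355 and 112 in control kidneys. The control arrays thus spanned 6.11-fold and enclosed all 5 calorie-restricted values, and the difference was -0.00 ± 0.40 with a 95% interval of -0.86 to 0.85.

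The squalene and sterol arm held the other 2 rises of synthesis genes among 11 measured, with a median of 0.25. Lss, which closes squalene epoxide into lanosterol, gave 899, 751, 648, 816 and 667 in calorie-restricted kidneys, against 482, 337, 604, 408 and 522 in control kidneys. The diets did not overlap, although control replicate 3 came close. The means were 756 ± 104 and 471 ± 103 (SD, n = 5 each), a difference of 0.70 ± 0.16 (limma adjusted p = 0.0268) and of 0.68 in replicates 4 and 5 alone. Its second tested probe set differed by 0.20 ± 0.27 and did not pass, and the brightest one ends in s_at, a kind that can bind related transcripts. The call was lost without control replicate 2 (0.59, adjusted p = 0.0629) or 4 (0.66, 0.0610) and without calorie-restricted replicate 1 (0.64, 0.0678) or 2 (0.70, 0.0653).

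Dhcr7, the reductase of the last step to cholesterol, gave 822, 619, 711, 450.1 and 686 in calorie-restricted kidneys, against 384, 449, 505, 349 and 343 in control kidneys. Calorie-restricted replicate 4 lay below control replicate 3, and the other 4 lay above all controls. The means were 658 ± 137 and 406 ± 69.7 (SD, n = 5 each), a difference of 0.68 ± 0.17 (limma adjusted p = 0.0337) on its only probe set. It was 0.68 in replicates 4 and 5 alone, where the controls left were its lowest. For calorie-restricted replicates 4 and 5 against all controls it was 0.47. The call was lost without control replicate 2 (0.72, adjusted p = 0.0629), 4 (0.63, 0.0700) or 5 (0.63, 0.0607) and without calorie-restricted replicate 1 (0.60, 0.0827), 2 (0.70, 0.0724) or 3 (0.65, 0.0831).

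Hsd17b7 and Tm7sf2 came nearest the threshold among the remaining sterol enzymes. Hsd17b7, the 3-ketosteroid reductase of the demethylation steps, gave 700.1 to 1377 in calorie-restricted kidneys, against 549 to 893 in control kidneys (0.56 ± 0.17, limma adjusted p = 0.0665). It passed without calorie-restricted replicate 4 (0.68, adjusted p = 0.0296), but its other tested probe sets differed by -0.12 ± 0.16 and 0.17 ± 0.19. Tm7sf2, a sterol C14 reductase, gave 741 to 791 in calorie-restricted kidneys, all above the control values of 496 to 739 (0.35 ± 0.12, adjusted p = 0.0883). Nsdhl, which removes the carboxyl group at C4, differed by 0.25 ± 0.11 and Fdft1, squalene synthase, by 0.33 ± 0.18 (adjusted p = 0.175 and 0.248), while the second Fdft1 probe set differed by -0.05 ± 0.18. Ebp, the sterol isomerase, differed by 0.07 ± 0.12.

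The 4 enzymes of the oxidation steps had differences near 0. Sqle, squalene epoxidase, gave 883 to 1470.4 in calorie-restricted kidneys, against 796 to 1673 in control kidneys (-0.12 ± 0.19). Cyp51, the lanosterol demethylase, differed by -0.11 ± 0.22, Sc5d, the sterol desaturase, by -0.11 ± 0.15 and Msmo1, the C4 methyl oxidase, by 0.05 ± 0.39. None of these 4 passed, with adjusted p of 0.668 to 0.949 in limma. Msmo1 gave 813, 352, 381, 672 and 1104 in calorie-restricted kidneys, against 572, 959, 1150.1, 411 and 261 in control kidneys, so both diets held high and low mice. In replicates 4 and 5 alone the differences were 0.37 for Sqle, 0.23 for Cyp51, 0.35 for Sc5d and 1.40 for Msmo1, and the controls left there, 4 and 5, were the lowest 2 for Msmo1.

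**Figure D2:**
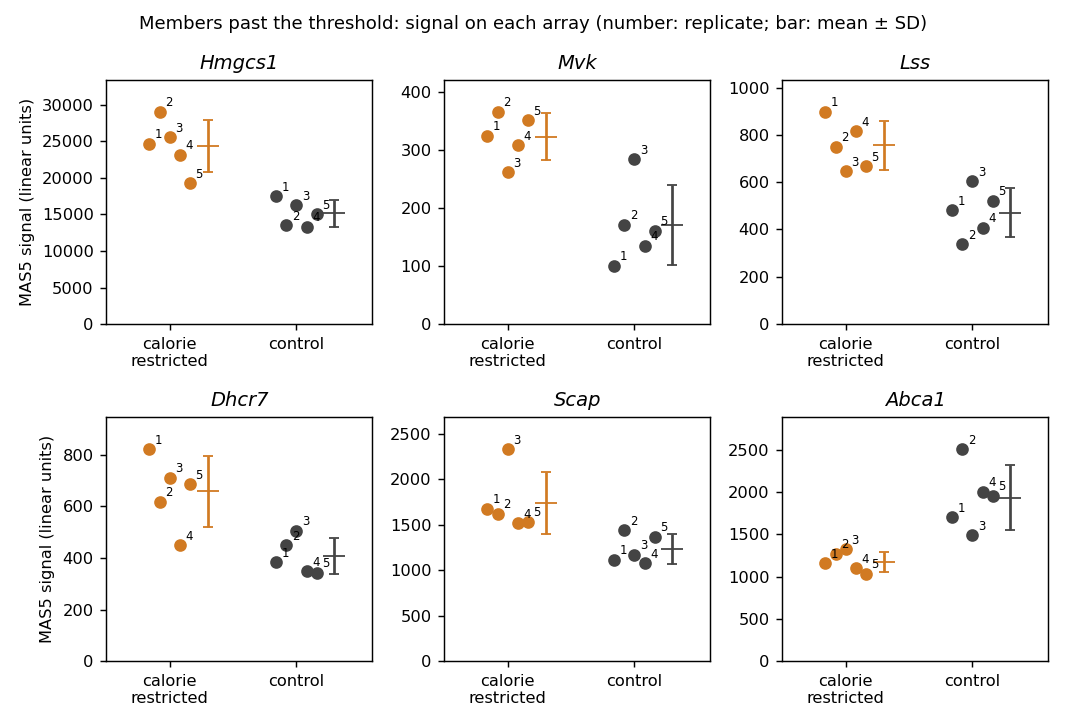
MAS5 signal (vertical axis, linear units from 0) of the 6 genes past the threshold on each array, calorie restricted left of control; numbers are replicates and bars are mean ± SD of 5 arrays. The diets separate fully for Hmgcs1, Lss, Scap and Abca1, while 1 array crosses for Mvk (control 3) and for Dhcr7 (calorie restricted 4).

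Of the 4 sterol-sensing genes, Scap rose and the transcription factor itself did not pass. Scap gave 1678, 1622, 2334, 1515 and 1534 in calorie-restricted kidneys, against 1119, 1439.7, 1171, 1077 and 1368 in control kidneys, without overlap. The means were 1737 ± 340.5 and 1235 ± 159.9 (SD, n = 5 each), a difference of 0.48 ± 0.13, the closest call of the list (limma adjusted p = 0.0490). Calorie-restricted replicate 3 stood apart at 2334, and without it the difference was 0.37 (adjusted p = 0.104). The call was also lost without calorie-restricted replicate 1 or 2 (0.49 and 0.50, adjusted p = 0.0960 and 0.0929) and without control replicate 1, 2, 3, 4 or 5 (0.45, 0.54, 0.47, 0.44 and 0.52, adjusted p = 0.0781, 0.0691, 0.0998, 0.0996 and 0.0580). It was 0.52 after quantile normalization (adjusted p = 0.0508), 0.38 after median centring (0.0891) and 0.33 in replicates 4 and 5 alone.

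Srebf2, which encodes the SREBP2 precursor, gave 708 to 813 in calorie-restricted kidneys, against 629 to 845 in control kidneys (0.06 ± 0.11, 95% interval -0.18 to 0.30, limma adjusted p = 0.752). Its second probe set differed by -0.18 ± 0.16. Insig1, which is itself a target of SREBP2, gave 2129.9, 989.8, 976, 881 and 1018 in calorie-restricted kidneys, against 764, 1321, 1038, 634 and 418 in control kidneys. Its difference of 0.55 ± 0.29 did not pass (adjusted p = 0.249) and was 0.32 without calorie-restricted replicate 1, the 1 array above all the controls. It was 0.88 in replicates 4 and 5 alone (limma adjusted p = 0.119), where the controls left were its lowest. Against all controls, calorie-restricted replicates 4 and 5 differed by 0.29 for Insig1. Insig2, which is not under the same sterol control, differed by -0.14 ± 0.11, and its other 2 probe sets by -0.10 ± 0.11 and -0.22 ± 0.13. The 2 Insig genes thus had differences of opposite sign, neither past the threshold, and the gap between them was not tested.

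None of the 4 genes of uptake and intracellular transport passed at an adjusted p under 0.05 or an unadjusted p under 0.05 in limma, with differences of -0.10 to 0.13. Of all 12196 genes tested, 3224 had an unadjusted p under 0.05 in limma. Npc1 and Npc2, which hand cholesterol out of the lysosome, differed by 0.13 ± 0.18 and 0.08 ± 0.08. Npc2 gave 8936 to 10048 in calorie-restricted kidneys, against 7864 to 9729 in control kidneys, on its brightest probe set. A second probe set of Npc2 differed by -0.19 ± 0.08 (adjusted p = 0.162) and the dimmest tested one, with means of 137 and 244, fell by 0.84 on the log2 scale (adjusted p = 0.0345) without overlap between diets, so the Npc2 probe sets disagree. Stard4, a cytosolic sterol carrier and SREBP2 target, gave 1468 to 1906 in calorie-restricted kidneys, against 1428 to 2472 in control kidneys (-0.06 ± 0.15). Scarb1, the HDL receptor SR-BI, gave 462 to 613 in calorie-restricted kidneys, against 477 to 707 in control kidneys (-0.10 ± 0.14).

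Of the 4 measured efflux and LXR genes Abca1 fell, and the others did not pass. Abca1 gave 1160.1, 1273, 1324, 1103 and 1037 in calorie-restricted kidneys, against 1702, 2510.2, 1493, 2005 and 1956 in control kidneys. All 5 calorie-restricted arrays lay below all controls, and replicates 4 and 5 were the lowest of them. The means were 1179 ± 119 and 1933 ± 383 (SD, n = 5 each), a difference of -0.70 ± 0.13 (limma adjusted p = 0.0185), that is 0.617 of the control level. It was -0.89 in replicates 4 and 5 alone (adjusted p = 0.0270) and -0.60 without control replicate 2, where the adjusted p was 0.0503. A second tested probe set of Abca1, with means of 130.2 and 112, differed by 0.24 ± 0.25, and the mean of both differed by -0.23 (adjusted p = 0.324).

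Abcg1, the partner transporter that loads HDL, gave 541 to 814 in calorie-restricted kidneys, against 516 to 708 in control kidneys (0.24 ± 0.14, limma adjusted p = 0.272). Nr1h3, which encodes LXR alpha, gave 262 to 403 in calorie-restricted kidneys, against 288 to 388 in control kidneys (0.08 ± 0.15, adjusted p = 0.782). Apoe, the apolipoprotein that carries exported cholesterol, gave 25739.7, 17440.4, 16502, 29611 and 26819 in calorie-restricted kidneys, against 11211, 23539.6, 24491, 24186 and 21357 in control kidneys (0.16 ± 0.21, adjusted p = 0.663). The low value of control replicate 1 sets the sign for Apoe, whose difference was -0.05 without that array. The difference of Abcg1 was -0.044 in replicates 4 and 5 alone. Of these LXR targets only Abca1 thus passed, and whether Abcg1 and Apoe differed from it in direction was not tested.

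Macrophages express Abca1, Abcg1 and Apoe, and 5 of 11 macrophage markers fell (limma, adjusted p under 0.05; Mpeg1, Ctss, Cd14, Mrc1 and Lyz2). The summed signal of the 11 was 16347 to 27561 in calorie-restricted and 22988 to 41409 in control kidney. The log2 difference was below 0 for 10 of the 11, with a median of -0.70, and was 0.02 for Csf1r. Adgre1 had means of 658 and 763 and Csf1r of 5627 and 5653, and neither passed. Calorie-restricted replicates 1 to 4 had sums below all controls. Replicate 5 had a macrophage sum inside the control range and the lowest Abca1 signal of all 10 arrays. Of the markers that fell, Mpeg1 (1173), Ctss (4026) and Cd14 (1070) were still below all controls on that array. Mrc1 (531) and Lyz2 (4620) were inside the control range there. The part of macrophages in the Abca1 result was not tested.

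Adrenal cortex, which lies on the kidney and is rich in sterol enzymes, was followed with 6 measured markers, of which 4 were below the filter. The other 2 did not pass in limma, Star with means of 267 and 137 (0.99, adjusted p = 0.0523) and Cyp21a1 with means of 189.7 and 189.5. The summed signal of the 6 was 650.4 to 1075 in calorie-restricted and 593 to 791 in control kidney. Calorie-restricted replicates 4 and 5 had sums inside the control range, although 4 of the 6 markers in the sum were below the filter. Star gave 184 and 203 on these arrays, against 83.7 to 202 in control kidneys, so replicate 5 lay just above all controls. Cyp21a1 gave 181 and 183 on them, against 160 to 230 in control kidneys. On both arrays Hmgcs1, Mvk and Lss were above all controls, while Dhcr7 was above them on replicate 5 and below control replicate 3 on replicate 4. Proximal tubule markers were higher, 7 of 9 in limma, as were 2 of 6 hepatocyte markers, whose sum was 15024 to 19360.3 in calorie-restricted and 11873 to 17145 in control kidney. Of 4 tested adipocyte markers Fabp4 fell (limma adjusted p = 0.0170), and the summed signal of 5 measured ones was 6821 to 12409 in calorie-restricted and 13638 to 19142 in control kidney, without overlap. Fabp4 made up most of that sum, at 5474 to 9895 and 11740 to 14819. Adipoq, Cidec, Lep and Retn each overlapped between the diets. Of 3 tested podocyte markers Wt1 fell (limma adjusted p = 0.0401), and their sum was 2342 to 3022 in calorie-restricted and 2367 to 4231 in control kidney. No marker of endothelium, thick limb and distal tubule or collecting duct passed in limma. All 6 endothelial markers had differences below 0, with a median of -0.24. The part of any of these cell types in the results was not tested.

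Synthesis and efflux were set side by side on each array as the mean over genes of the log2 signal, each gene minus its mean of the 10 arrays. The 17 synthesis genes stood at 0.23, 0.06, -0.04, 0.13 and 0.28 in calorie-restricted kidneys, against -0.15, -0.02, 0.22, -0.28 and -0.43 in control kidneys. The diets overlapped, because control replicate 3 stood above 3 of the 5 calorie-restricted arrays. The 4 efflux and LXR genes stood at 0.04, -0.15, -0.09, -0.01 and 0.07 in calorie-restricted kidneys, against -0.27, 0.15, 0.05, 0.12 and 0.08 in control kidneys. Synthesis minus efflux was 0.05 to 0.22 in calorie-restricted kidney, positive on all 5 arrays, and -0.51 to 0.17 in control kidney, positive on replicates 1 and 3. The median difference between diets was 0.25 over the synthesis genes, 4 of 17 higher, and 0.12 over the efflux and LXR genes, 1 of 4 lower, against -0.01 over all genes. The efflux median was 0.00061 without control replicate 1. The mean over the efflux and LXR genes had the other sign from their median, at -0.03 in calorie-restricted and 0.03 in control kidney, where the synthesis mean was 0.13 and -0.13.

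**Figure D3:**
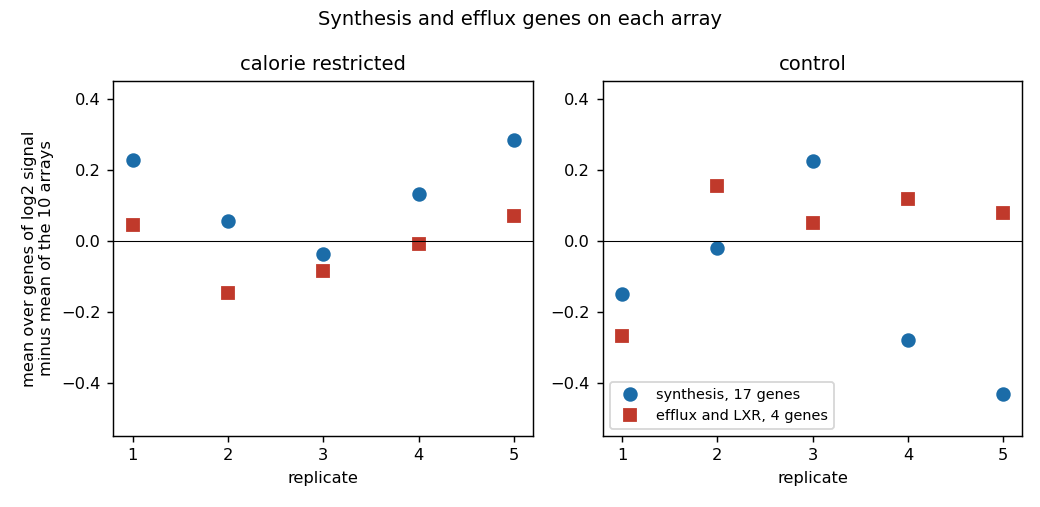
Mean over genes of log2 signal minus each gene's mean of the 10 arrays (vertical axis), for 17 synthesis genes (circles) and 4 efflux and LXR genes (squares), by replicate, calorie restricted left and control right. Circles lie above squares on all 5 calorie-restricted arrays and on control replicates 1 and 3, and control replicates 4 and 5 show the widest gap the other way.

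Several synthesis genes differed between mice of 1 diet as much as between diets, and shared their high and low mice. The standard deviation of log2 signal was 0.51 in calorie-restricted and 1.02 in control kidney for Fdps, 0.71 and 0.88 for Msmo1 and 0.52 and 0.64 for Insig1. These were the 3 largest of the 29 genes in each diet, with Msmo1 first in calorie-restricted and Fdps first in control kidney. Control replicate 3 had the highest control value for 12 of the 17 synthesis genes. Control replicate 5 had the lowest for 7 of them (Idi1, Fdps, Sqle, Msmo1, Nsdhl, Sc5d and Dhcr7), and also for Insig1. Among calorie-restricted mice replicate 2 was lowest for Idi1, Fdps, Sqle, Msmo1, Nsdhl and Sc5d, and replicate 5 was highest for the same genes other than Fdps. Hmgcs1 did not follow them, since replicate 2 was its highest and replicate 5 its lowest calorie-restricted array. The 3 genes of largest spread were thus other genes than the 4 that rose. A large spread between mice itself makes a gene harder to call, so the test in part sets this. Of the 4, Mvk was widest in control kidney (0.55) and Dhcr7 in calorie-restricted kidney (0.33), where Mvk was at 0.19.

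Whether the spread itself changed with diet was described and not tested. The standard deviation was larger in control kidney for 11 of 17 synthesis genes, with medians of 0.26 in calorie-restricted and 0.27 in control kidney. Tm7sf2 gave 741, 772, 778, 791 and 779.7 in calorie-restricted kidneys, a span of 1.07-fold, against 556, 689, 572, 496 and 739 in control kidneys, a span of 1.49-fold. Mvd went the other way, with spans of 1.64-fold in calorie-restricted and 1.19-fold in control kidney.

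**Figure D4:**
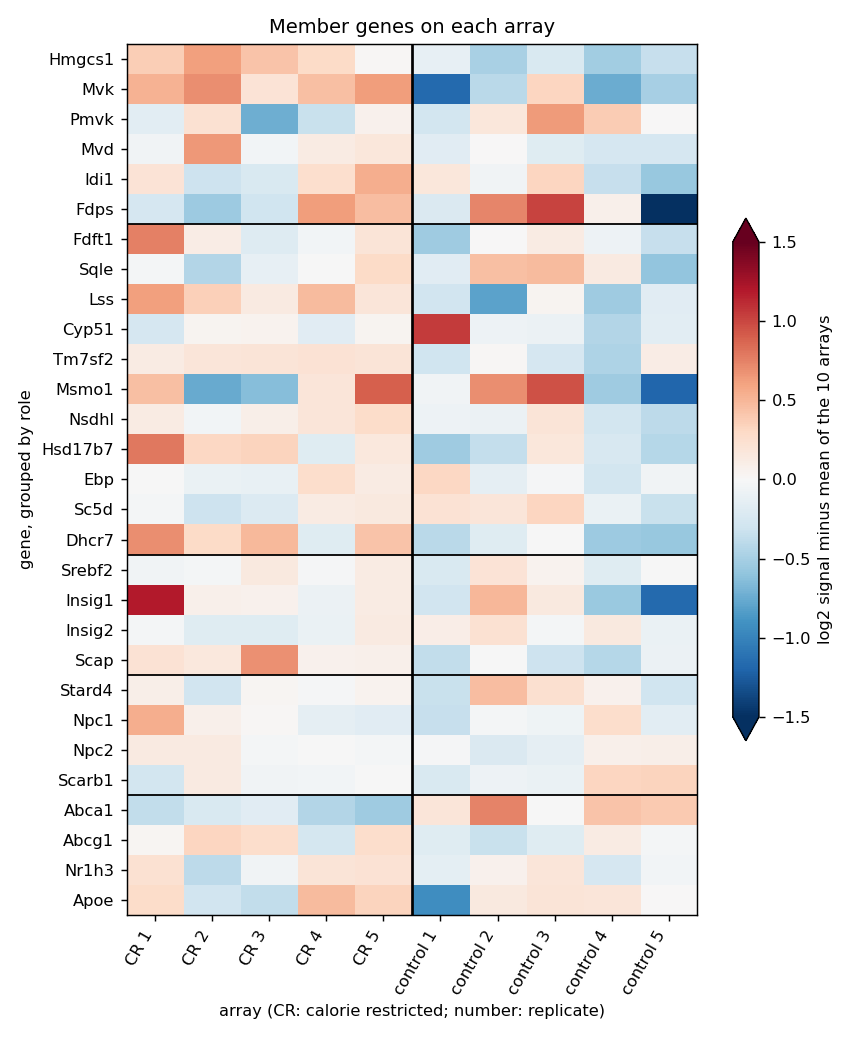
Log2 signal of the 29 genes on each array minus the gene's mean of the 10 arrays (colour scale, red higher, blue lower), with calorie-restricted arrays left of the vertical line and control arrays right, and horizontal lines between roles. Hmgcs1, Lss, Scap and Tm7sf2 are higher on every calorie-restricted array than on any control array and Abca1 lower, while Idi1, Fdps, Sqle and Msmo1 vary within both diets, with control 3 high and control 5 low.

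A further 54 genes around the pathway were listed, of which 45 were tested, and 1 rose and 1 fell (2.22% each). Of all genes 3.08% rose and 3.02% fell, 6.10% in either direction. Srebf1, the SREBP1 gene that is itself an LXR target and drives fatty acid synthesis, gave 1596, 1278, 1289, 1091 and 1471 in calorie-restricted kidneys, against 916, 1071, 1009.6, 977 and 655 in control kidneys. The diets did not overlap, and the difference was 0.55 ± 0.15 (limma adjusted p = 0.0429). Mylip, an LXR target and ubiquitin ligase that degrades lipoprotein receptors, gave 2500.0, 2728, 1858, 2759 and 2198 in calorie-restricted kidneys, against 3583, 3603, 2874, 2965 and 3223 in control kidneys, again without overlap (-0.44 ± 0.12, adjusted p = 0.0471). The 2 LXR targets Srebf1 and Mylip thus had differences of opposite sign, and LXR activity was not tested.

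Both of these calls were near the threshold. With 1 array left out Srebf1 differed by 0.43 to 0.62 and Mylip by -0.49 to -0.35, and both calls were lost without any 1 of the 5 controls and without calorie-restricted replicate 1, 2, 3 or 5 (adjusted p of 0.0521 to 0.105 for Srebf1 and 0.0573 to 0.110 for Mylip). In limma 0 passed among the 11 genes of sterol transport and esters, the 6 oxysterol enzymes and the 10 of other isoprenoid branches. At an unadjusted p under 0.05 stood 3224 of all 12196 genes tested, and 4, 2 and 1 of these lists. Their lowest p belonged to the sterol carrier Gramd1a (-0.41 ± 0.14, adjusted p = 0.0801), the bile acid enzyme Hsd3b7 (-0.39 ± 0.16, adjusted p = 0.135) and Rabggtb, a subunit of the enzyme that adds geranylgeranyl groups to Rab proteins (-0.64 ± 0.19, adjusted p = 0.0577). Rabggtb differed by -0.04 and Hsd3b7 by -0.04 in replicates 4 and 5 alone.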

How the data were processed

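Kidney RNA of 10 mice, 5 on a calorie-restricted and 5 on a control diet, was measured on 1 Affymetrix array each. The authors deposited 1 linear intensity per probe set and array, the MAS5 signal, and the submitters' processing notes name Affymetrix Expression Console without a version. After trimming 2% of values at each end the mean was 499.8 for all 10 arrays. Such scaling to 1 mean leaves differences between arrays that depend on brightness. The number of arrays limits the precision, and detection calls were not used here.

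Signals below 1 were set to 1, log2 was taken, and 64 control probe sets and probe sets with a mean below log2 6.81 were left out. The diets were compared over 22517 probe sets with limma 3.58.1 in R 4.3.3 (eBayes with an intensity trend, 2-sided, Benjamini-Hochberg adjustment, threshold 0.05), after a check on simulated data. The spread behind each p is that between mice. Of 45101 probe sets 34958 had 1 symbol. Named genes were all members, further pathway genes past the threshold, and the lowest p of a further list without one. The members and lists were chosen with earlier results of these data known. Alternatives covered filters, scaling, log offset, variance model, array weights, replicate number, left-out arrays, RNA quality and probe set choice.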

Additional observations from a re-analysis of the deposited data

Results flagged for a closer look

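Within a diet, 5 of 58 sets of 5 arrays held 1 array far from the others, by a gap that was a large part of the whole range on the log2 scale; chance alone gives about 1 in 20, or 5%, of such sets. Insig1 gave 2129.9 on calorie-restricted replicate 1, against 881 to 1018 on the other calorie-restricted arrays (gap 0.837 of the range). Scap gave 2334 on calorie-restricted replicate 3, against 1515 to 1678 (0.763), and Stard4 gave 1468 on calorie-restricted replicate 2, against 1775 to 1906 (0.727). Among controls replicate 1 stood apart for both genes concerned. Apoe gave 11211 there, against 21357 to 24491 (0.825), and Cyp51 1684, against 603 to 772 (0.759).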

How the results depend on the processing

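The 6 genes past the threshold kept their direction in every setting tried, and their calls held in 77 and were lost in 60 of the gene and setting pairs; the cause of the losses was not tested. The count of 6 was 2 without a filter, 2 without an intensity trend, 2 when all probe sets of a gene were averaged (Mvk and Dhcr7), 5 with a stricter filter, quantile normalization or median centring, 0 with the 3′ over 5′ ratio fitted as a covariate or for calorie-restricted replicates 4 and 5 against all controls, 1 for replicates 4 and 5 alone, 8 at an adjusted p under 0.10 and 0 under 0.01, and 1 to 7 with 1 array left out, lowest without control replicate 2. In those settings the count of 1371 probe sets was 287 without a filter, 243 without a trend, 751 after quantile normalization, 9 with the covariate, 198 in replicates 4 and 5 alone, 1 for calorie-restricted replicates 4 and 5 against all controls, 3246 under 0.10 and 1 under 0.01. It was 2292 with array weights and 125 to 2481 with 1 array left out. Arrays of the same replicate number did not pair (correlation of deviations -0.141 to -0.087, 0 of 10 arrays nearest their own number), and a replicate block gave 1 gene (Hmgcs1) and 127 probe sets. The synthesis median was 0.16 to 0.42 and the efflux median 0.00 to 0.19 over all settings. Median centring moved the median of all genes by -0.10.

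Signs that turned belonged only to genes that did not pass. Quantile normalization gave 0.022 for Fdps, -0.045 for Npc2 and -0.065 for Apoe. Median centring gave -0.046 for Msmo1, -0.031 for Ebp, -0.033 for Srebf2, -0.017 for Npc2 and -0.021 for Nr1h3. Array weights gave -0.16 for Msmo1, and the mean of probe sets -0.060 for Srebf2 and -0.32 for Npc2. The covariate gave 0.80 for Fdps, 0.18 for Sqle, 0.087 for Cyp51, 0.16 for Sc5d, 0.063 for Stard4, -0.19 for Npc1 and -0.063 for Npc2. Replicates 4 and 5 alone gave 1.31 for Fdps, 0.37 for Sqle, 0.23 for Cyp51, 0.35 for Sc5d, 0.13 for Stard4, -0.21 for Npc1, -0.10 for Npc2 and -0.044 for Abcg1. Calorie-restricted replicates 4 and 5 against all controls gave 0.54 for Fdps, 0.079 for Sqle, 0.078 for Sc5d and -0.09 for Npc1. With 1 array left out Fdps ranged from -0.40 to 0.25, Msmo1 from -0.24 to 0.30, Cyp51 from -0.24 to 0.13, Stard4 from -0.15 to 0.052 and Apoe from -0.048 to 0.28. Dim probe sets limit what can be compared, since their signals lie near background.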
